A study of Mus musculus with 10 samples.

Results

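The comparison set haematopoietic stem and progenitor cells (HSPCs) with Flt3-ITD against WT HSPCs in their promoter contacts. It used 4 of the 10 libraries of the series, 2 from Flt3-ITD HSPCs and 2 from WT HSPCs, and 88421 pairs of DNA fragments on the autosomes and X. The Flt3-ITD mice carried the Flt3ITD/+ genotype, the WT mice were wild-type, and all were C57BL/6. The cells were lineage-negative bone marrow cells from femurs and tibias, obtained with a depletion kit, and the labels give neither sex nor age. The pair list was also shaped by the other HSPC groups, Npm1c (Npm1flox-cA/+;Mx1-Cre+) and the double mutant DM (Npm1flox-cA/+;Flt3ITD/+;Mx1-Cre+), which has the same Flt3 allele. Mx1-Cre is an interferon-inducible deleter that acts in blood cells and in other tissues. Contacts carry no transcript levels, so the cell type label could not be checked against marker genes.

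Flt3 is a receptor tyrosine kinase of early blood progenitors. An internal tandem duplication (ITD) in its juxtamembrane region keeps the kinase active without its ligand, and the receptor then signals through STAT5, RAS and ERK, and PI3K. STAT5 switches on genes such as Cish, Socs2 and Pim1, and ERK switches on immediate early genes such as Fos and the Egr genes, together with feedback phosphatases of the Dusp family. Promoter-capture Hi-C joins fragments of fixed chromatin that lie close together in the nucleus and pulls down the joined pieces that hold a promoter. A captured promoter fragment is called a bait, and the fragment joined to it is its other end, which may be an enhancer far along the chromosome.

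Each pair has 1 interaction score per library, which is never negative and is read here as higher for a stronger contact; how it was scaled between libraries is not given in the sources used here. A pair is on the list when both replicates of 1 or more of the 4 HSPC groups scored at least 5. Over the whole list, how many pairs pass in Flt3-ITD or WT HSPCs is therefore partly fixed by this filter. Apart from the shares that follow, counts of passing pairs are given only over pairs listed through Npm1c or DM HSPCs. Of all 63320 such pairs, 29242 passed in both Flt3-ITD libraries and 19342 in both WT libraries. The counts of single promoters below stand beside these. Over the pairs listed through Npm1c or DM HSPCs, 61.0% and 61.0% scored 5 or more in the Flt3-ITD libraries, against 51.3% and 43.5% in the WT libraries. Over the whole list, which carries the filter, it was 64.1% and 64.0% in the 2 Flt3-ITD libraries, against 53.4% and 46.9% in the 2 WT libraries. The mean over the whole list was 64.1% ± 0.0488 in Flt3-ITD HSPCs and 50.2% ± 4.56 in WT HSPCs (SD, n = 2 each). The groups did not overlap, but with 2 libraries against 2 the exact two-sided permutation p was 0.33, the smallest this design allows. The median score was 5.74 and 5.69 in the Flt3-ITD libraries and 5.18 and 4.75 in the WT libraries, so the second WT library stood lowest. Over all listed pairs, scores of the 2 Flt3-ITD libraries had a Spearman correlation of 0.55 and those of the 2 WT libraries of 0.48, while pairs of libraries across the groups gave 0.24 to 0.32; a pair entered the list through high scores in both replicates of a group, which by itself favours agreement of replicates.

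Most promoters had higher contact scores in Flt3-ITD HSPCs. The level of a promoter was the mean of log2(score + 1) over its pairs, taken only over pairs listed through Npm1c or DM HSPCs (63320 pairs), so that neither group compared had chosen them. Of the 1858 promoters with at least 10 such pairs, 1618 (87.1%) had a higher mean in Flt3-ITD HSPCs and 240 a lower one, with a median difference of 0.28 log2 units. At an adjusted p under 0.05 (limma, Benjamini-Hochberg over the 1858), 143 promoters rose in Flt3-ITD HSPCs (7.70%) and 0 fell, with 567 at an unadjusted p under 0.05. The 143 differed by 0.60 to 2.15 log2 units, and 117 of them hold a gene of the annotation. Both Flt3-ITD libraries lay above both WT libraries in 142 of the 143, and in 58.7% of all promoters tested. When the libraries were quantile normalized, which took the median difference to 0.01, 13 promoters were called higher (0.700%) and 4 lower (0.215%).

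The count rests on single libraries. Each fit that leaves out a library sets 1 library against 2, takes the spread from the other group and the prior, and assumes that the lone library varies like them. The count was 31 and 7 without the first and the second Flt3-ITD library, and 631 and 88 without the first and the second WT library. Npm1c and DM are themselves mutants, and a selection on them can favour pairs that are higher in mutants. Of the 143 promoters, 141 had a higher mean in Npm1c HSPCs than in WT HSPCs, and 138 had a higher mean in DM HSPCs. These means were taken over the pairs that Npm1c or DM HSPCs had chosen, and the 143 were called against the same WT libraries. Over all such pairs the mean log2(score + 1) was 2.65 and 2.81 in Npm1c HSPCs and 2.81 and 2.82 in DM HSPCs. In WT HSPCs it was 2.51 and 2.37. The share over all promoters tested is not given, so the 2 counts are not read as a trait of the 143. With pairs from Npm1c HSPCs alone, which carry no Flt3-ITD, 86 of 924 promoters were called higher and 1 lower. With pairs from DM HSPCs alone the counts were 6 and 0 of 1115.

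**Figure D1:**
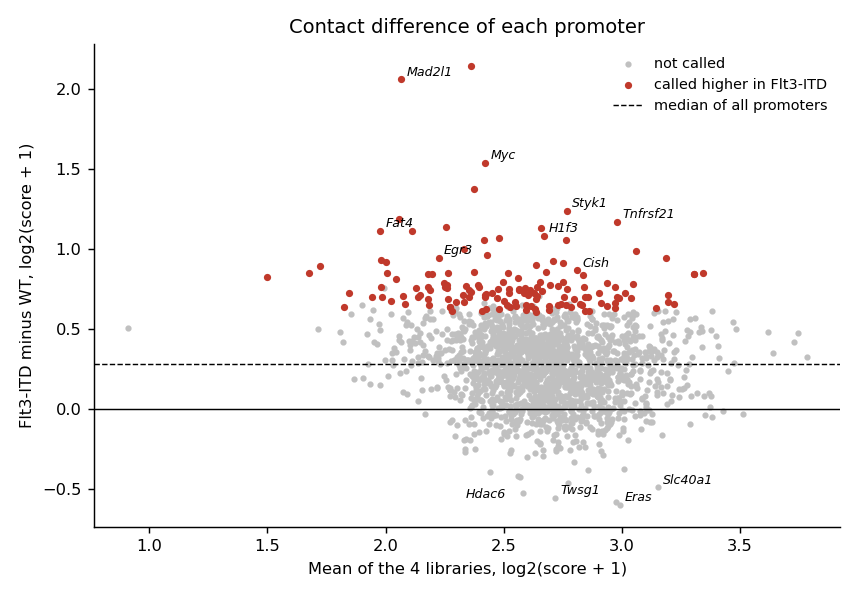
Difference of the contact level (Flt3-ITD minus WT, vertical axis) against the mean level of the 4 libraries (horizontal axis), both as log2(score + 1), for 1858 promoters. Red points are the 143 called higher in Flt3-ITD HSPCs, the dashed line is the median difference of 0.28, and the lowest points near -0.6 include Eras.

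Myc, a transcription factor that drives growth and division and a target of STAT5, had higher contacts in Flt3-ITD HSPCs with a region far from the gene. Its bait at chr15:61984173-61985527 (mm10) holds an end of the gene. All 28 listed pairs of this bait lay 1.62 to 1.76 Mb away on the downstream side, and none of these other ends holds another gene start or is a bait. Blood cells of mice are known to use an enhancer cluster far downstream of Myc. The mean log2(score + 1) over 21 pairs was 2.92 and 3.46 in the Flt3-ITD libraries, against 1.96 and 1.34 in the WT libraries. Both Flt3-ITD libraries were above both WT libraries, and the group means were 3.19 ± 0.38 in Flt3-ITD HSPCs and 1.65 ± 0.44 in WT HSPCs (SD, n = 2 each). The difference was 1.54 (SE 0.22, adjusted p = 2.56e-05), and it was 1.25 with quantile normalization (adjusted p = 0.0016). With 1 library left out at a time the difference was 1.23 to 1.85, in fits that set 1 library against 2. Of the 21 pairs, 11 scored 5 or more in both Flt3-ITD libraries, against 1 in both WT libraries. Of all 63320 pairs listed through Npm1c or DM HSPCs, 29242 and 19342 did. Over the 21 pairs the mean was 2.48 and 2.88 in Npm1c HSPCs and 3.04 and 3.17 in DM HSPCs.

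The highest Myc scores sat in a few neighbouring fragments. The fragment at chr15:63657897-63664956 scored 24.7 and 22.1 in the Flt3-ITD libraries, against 13.3 and 0.00 in the WT libraries. The fragment at chr15:63719431-63723037 scored 19.4 and 23.3 in the Flt3-ITD libraries, against 4.81 and 0.37 in the WT libraries. In both fragments the WT replicates lay far apart, and neither pair was called on its own, with adjusted p-values of 0.296 and 0.379. The pair with chr15:63664957-63671838 scored 10.3 and 6.65 in Flt3-ITD HSPCs and 0.54 and 0.00 in WT HSPCs. It and the second of the fragments above are on the list only because Flt3-ITD HSPCs passed, so their scores carry the list filter.

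**Figure D2:**
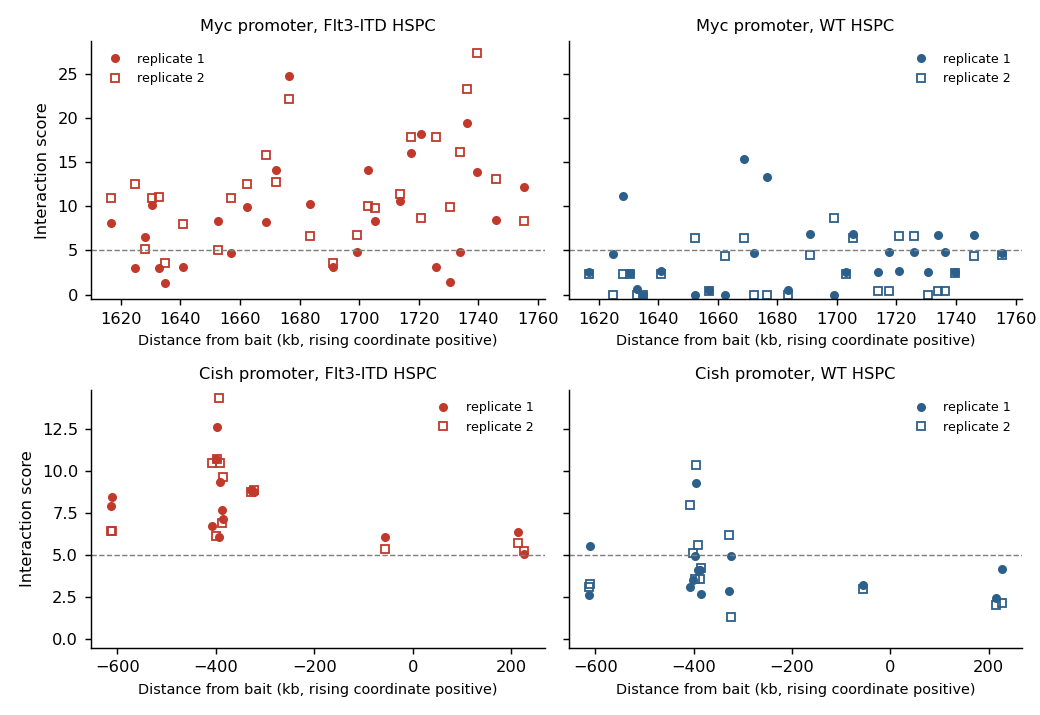
Interaction scores of every listed pair of the Myc bait (top) and the Cish bait (bottom) by distance from the bait in kb, for the 2 Flt3-ITD libraries (left) and the 2 WT libraries (right). The dashed line is the score of 5; of the pairs listed through Npm1c or DM HSPCs, 11 of 21 Myc pairs and 11 of 11 Cish pairs passed it in both Flt3-ITD libraries, against 1 and 1 in both WT libraries.

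Cish encodes an inhibitor of cytokine receptor signalling that STAT5 induces. Its bait at chr9:107292977-107299222 had 14 listed pairs, 56 to 612 kb away. Of the 11 listed through Npm1c or DM HSPCs, all 11 scored 5 or more in both Flt3-ITD libraries, against 1 in both WT libraries. The mean log2(score + 1) over the 11 pairs was 3.21 and 3.27 in Flt3-ITD HSPCs, against 2.34 and 2.41 in WT HSPCs. The replicates nearly coincided in both groups, and the difference was 0.87 (SE 0.20, adjusted p = 0.00594). Over the same pairs the mean was 2.91 and 2.96 in Npm1c HSPCs and 3.07 and 3.28 in DM HSPCs. Most of the contact sat in a run of fragments 385 to 408 kb from the bait. The fragment at chr9:106897536-106898873 scored 12.6 and 10.7 in Flt3-ITD HSPCs, against 4.96 and 3.56 in WT HSPCs, while its neighbour at chr9:106898874-106904093 scored 6.07 and 14.4 in Flt3-ITD HSPCs and 9.32 and 10.3 in WT HSPCs. The call was lost without either Flt3-ITD library and with quantile normalization (adjusted p = 0.105). The promoter of Cish is shown because Cish is a well known direct STAT5 target. In the RefSeq window of 300 bases (build GRCm38.p6, chr9:107296409-107296708, plus strand), the STAT motif TTCNNNGAA, which reads the same on both strands, occurs at bases 251 to 259 and 262 to 270, in capitals:
Cish: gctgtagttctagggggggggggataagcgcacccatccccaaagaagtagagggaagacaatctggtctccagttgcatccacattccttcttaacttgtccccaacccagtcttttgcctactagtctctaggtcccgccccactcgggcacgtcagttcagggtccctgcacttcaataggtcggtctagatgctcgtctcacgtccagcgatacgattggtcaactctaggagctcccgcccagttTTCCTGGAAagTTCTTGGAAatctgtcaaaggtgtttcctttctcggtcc
Of 32817 RefSeq promoter windows of the same length, 8.29% hold this motif. It was in 5 of 123 windows of called promoters (4.07%) and in 143 of 1831 windows of all promoters tested (7.81%).

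Of the 19 genes listed as STAT5 feedback and target genes, 5 promoters could be tested, 2 were called higher (Myc and Cish) and 0 lower, where 7.70% of all promoters were called. All 5 lay without overlap of the groups, as did 58.7% of all promoters. Their median difference was 0.50, against 0.28 over all promoters. Bcl6, a transcriptional repressor, averaged 2.45 and 2.70 in Flt3-ITD HSPCs and 2.22 and 1.94 in WT HSPCs, a difference of 0.50 with an adjusted p of 0.096. The bait shared by the cytokine genes Lif and Osm differed by 0.46, and that of Bcl2l1, which encodes an inhibitor of apoptosis, by 0.28; neither was called. Socs2 and Pim1 had only 4 and 3 listed pairs and were not tested. The Socs2 bait, whose gene encodes another inhibitor of cytokine signalling, scored 10.3 and 6.20 with a fragment 267 kb away in Flt3-ITD HSPCs, against 0.00 and 2.68 in WT HSPCs. This pair is on the list only through Flt3-ITD HSPCs. The only Socs2 pair listed through Npm1c or DM HSPCs, with the Cradd fragment, scored 5.09 and 4.66 in Flt3-ITD HSPCs. In WT HSPCs it scored 1.64 and 2.16 (adjusted p = 0.229 in the limma fit over all pairs). The remaining Socs2 pairs differed by 0.07 and 0.51. None of the 3 pairs of Pim1, which encodes a survival kinase, was listed through Npm1c or DM HSPCs.

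Among the immediate early and ERK feedback genes, 10 promoters were tested, 3 were called higher (Egr3, Dusp5 and Fos) and 0 lower, against 7.70% called of all promoters. All 10 differences were above 0, with a median of 0.60, as were 87.1% of all differences. The groups did not overlap in 9 of the 10, against 58.7% of all promoters. Egr3, an immediate early transcription factor, averaged 2.42 and 2.97 in Flt3-ITD HSPCs and 1.99 and 1.51 in WT HSPCs over 15 pairs. Its difference was 0.94 (SE 0.21, adjusted p = 0.00594), and 6 of the 15 pairs passed 5 in both Flt3-ITD libraries, against 0 in both WT libraries. Of all 63320 pairs listed through Npm1c or DM HSPCs, 29242 and 19342 passed. Fos, a component of AP-1, averaged 3.24 and 3.20 in Flt3-ITD HSPCs, against 2.87 and 2.05 in WT HSPCs (difference 0.76, adjusted p = 0.029). The 2 Flt3-ITD libraries nearly coincided, and the WT libraries lay further apart; without the second WT library the difference was 0.35 (adjusted p = 0.313), and without the first it was 1.17. All its listed other ends lay within 86 to 144 kb. Of 11 pairs listed through Npm1c or DM HSPCs, 9 passed in both Flt3-ITD libraries and 1 in both WT libraries. Dusp5, a phosphatase that inactivates nuclear ERK, averaged 2.61 and 2.84 in Flt3-ITD HSPCs, against 2.27 and 1.64 in WT HSPCs (difference 0.77, adjusted p = 0.0238). Without the second WT library the difference of Dusp5 was 0.46 (adjusted p = 0.17). All 20 of its pairs passed in DM HSPCs and 3 in Npm1c HSPCs. None of the 3 stayed called with quantile normalization. The promoter of Dusp5 is shown for its CArG boxes, the site of serum response factor, which acts downstream of ERK. In the RefSeq window (GRCm38.p6, chr19:53528895-53529194, plus strand), both lie side by side at bases 169 to 178 and 179 to 188:
Dusp5: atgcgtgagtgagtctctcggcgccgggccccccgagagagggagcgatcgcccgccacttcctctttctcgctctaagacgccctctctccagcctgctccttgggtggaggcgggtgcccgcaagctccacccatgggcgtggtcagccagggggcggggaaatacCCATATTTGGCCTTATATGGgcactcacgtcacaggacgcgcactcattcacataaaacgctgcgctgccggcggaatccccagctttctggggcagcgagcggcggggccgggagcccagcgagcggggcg
A CArG box, which reads the same on both strands, was in 1.63% of the 32817 RefSeq windows, in 2 of the 123 windows of called promoters and in 15 of the 1831 windows tested.

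Other members of this list were not called. Dusp6, a cytoplasmic ERK phosphatase, averaged 2.67 and 2.82 in Flt3-ITD HSPCs and 2.52 and 1.65 in WT HSPCs (adjusted p = 0.0535). Jun averaged 2.93 and 3.15 in Flt3-ITD HSPCs and 2.97 and 1.85 in WT HSPCs (adjusted p = 0.075). In Jun the first WT library lay above the first Flt3-ITD library. Spred1, an inhibitor of the RAS pathway, averaged 2.96 and 2.90 in Flt3-ITD HSPCs and 2.43 and 2.29 in WT HSPCs (adjusted p = 0.058). Egr1 had 3 listed pairs, of which 0 passed 5 in both Flt3-ITD libraries and 1 in both WT libraries, and was not tested. It averaged 1.38 and 2.11 in Flt3-ITD HSPCs and 2.80 and 1.83 in WT HSPCs. The difference was -0.57, with overlap of the groups.

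Flt3 itself could hardly be read. Its bait at chr5:147397844-147401780 had 3 listed pairs, none of which scored 5 or more in both replicates of either group. The pair with the fragment that holds the start of Pomp scored 9.76 and 3.31 in Flt3-ITD HSPCs and 5.27 and 4.14 in WT HSPCs. The pair with chr5:147728717-147738238 scored 1.48 and 1.89 in Flt3-ITD HSPCs and 4.95 and 2.98 in WT HSPCs (adjusted p = 0.298). The pair with chr5:147742703-147748039 scored 4.11 and 2.11 in Flt3-ITD HSPCs and 1.77 and 2.04 in WT HSPCs (adjusted p = 0.598). The Flt3-ITD libraries were below the WT libraries in the second of these pairs and above them in the third, and the groups overlapped in the Pomp pair. Among cytokine receptors and their signalling genes, 3 promoters were tested (Jak2, Hras and Tyk2), with differences of 0.42, 0.39 and 0.11, and none was called.

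Promoters of stem cell transcription factors were among those called: 3 of 7 tested rose (Sox4, Hlf and Mycn) and 0 fell, against 7.70% called of all promoters. The median of the 7 was 0.49. Sox4, a factor of lymphoid and myeloid progenitors, averaged 2.50 and 2.70 in Flt3-ITD HSPCs, against 1.68 and 1.84 in WT HSPCs (difference 0.84, SE 0.20, adjusted p = 0.00833). Over the same pairs it averaged 3.06 and 3.24 in Npm1c HSPCs, above both Flt3-ITD libraries. Its listed other ends lay 650 to 1028 kb away. The fragment at chr13:29835809-29836164 scored 8.92 and 7.40 with it in Flt3-ITD HSPCs and 0.20 and 1.61 in WT HSPCs. This pair was not called on its own (adjusted p = 0.104 in the limma fit over all pairs). Hlf, a factor of dormant stem cells, averaged 2.98 and 2.81 in Flt3-ITD HSPCs and 2.48 and 1.72 in WT HSPCs (difference 0.79, adjusted p = 0.0234), and without the second WT library the difference was 0.42 (adjusted p = 0.222). Mycn, a relative of Myc active in stem cells, averaged 2.50 and 2.51 in Flt3-ITD HSPCs and 2.01 and 1.71 in WT HSPCs (adjusted p = 0.0388). It averaged 2.81 and 3.26 in Npm1c HSPCs, also above both Flt3-ITD libraries. The other members tested were Hoxa7 with a difference of 0.49, Etv6 with 0.41, Lyl1 with -0.05 and Ikzf2 with -0.14, none of them called. Sox4, Mycn and Hlf were not called when either Flt3-ITD library was left out.

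The lymphoid regulator Ikzf1 (Ikaros) had a dense contact map close to the gene. Its bait at chr11:11681896-11685640 had 65 listed pairs within 6.1 to 226 kb. Of the 51 listed through Npm1c or DM HSPCs, 41 passed 5 in both Flt3-ITD libraries and 19 in both WT libraries. The mean over these 51 pairs was 3.36 and 3.34 in Flt3-ITD HSPCs, against 2.63 and 2.55 in WT HSPCs (difference 0.76, SE 0.20, adjusted p = 0.0174). Both groups had close replicates, and the call was lost without either Flt3-ITD library. The pair with chr11:11538457-11539223 scored 10.3 and 13.2 in Flt3-ITD HSPCs and 1.52 and 1.15 in WT HSPCs. Its adjusted p was 0.0182 in the limma fit over all pairs and 0.0556 in the fit of only the pairs listed through Npm1c or DM HSPCs. Ikzf1 was the 1 call among 6 promoters of the lymphoid list, whose median was 0.39. Of 2 myeloid factors tested, Klf4, a factor of monocyte differentiation, was called at 2.54 and 2.31 in Flt3-ITD HSPCs, against 1.63 and 1.54 in WT HSPCs (difference 0.85, adjusted p = 0.0081). Of its 11 pairs, 2 passed in both Flt3-ITD libraries, 1 in both WT libraries and 10 in both DM libraries. Of all 63320 pairs listed through Npm1c or DM HSPCs, 29242 passed in both Flt3-ITD libraries and 19342 in both WT libraries. Klf4 was not called with quantile normalization (difference 0.46, adjusted p = 0.338). Klf2 had a difference of -0.03.

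Runx1, Meis1, Cebpa and Spi1 (PU.1) had too few pairs for the promoter test. Meis1, a partner of Hox proteins in leukaemia, had 5 pairs listed through Npm1c or DM HSPCs, with means of 2.78 and 2.93 in Flt3-ITD HSPCs and 2.03 and 1.21 in WT HSPCs, and 3 of the 5 passed in both Flt3-ITD libraries, against 0 in both WT libraries. Runx1, the factor that starts definitive blood formation, had 1 of 4 such pairs passing in both Flt3-ITD libraries and 0 in both WT libraries. Its pair with chr16:93289354-93298501 scored 5.32 and 5.40 in Flt3-ITD HSPCs, against 0.73 and 0.63 in WT HSPCs, with an adjusted p of 0.0525 in the fit over all pairs and 0.106 in the fit of pairs listed through Npm1c or DM HSPCs. Cebpa, the factor of granulocyte commitment, had 1 of 6 pairs passing in Flt3-ITD HSPCs and 0 in WT HSPCs.

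**Figure D3:**
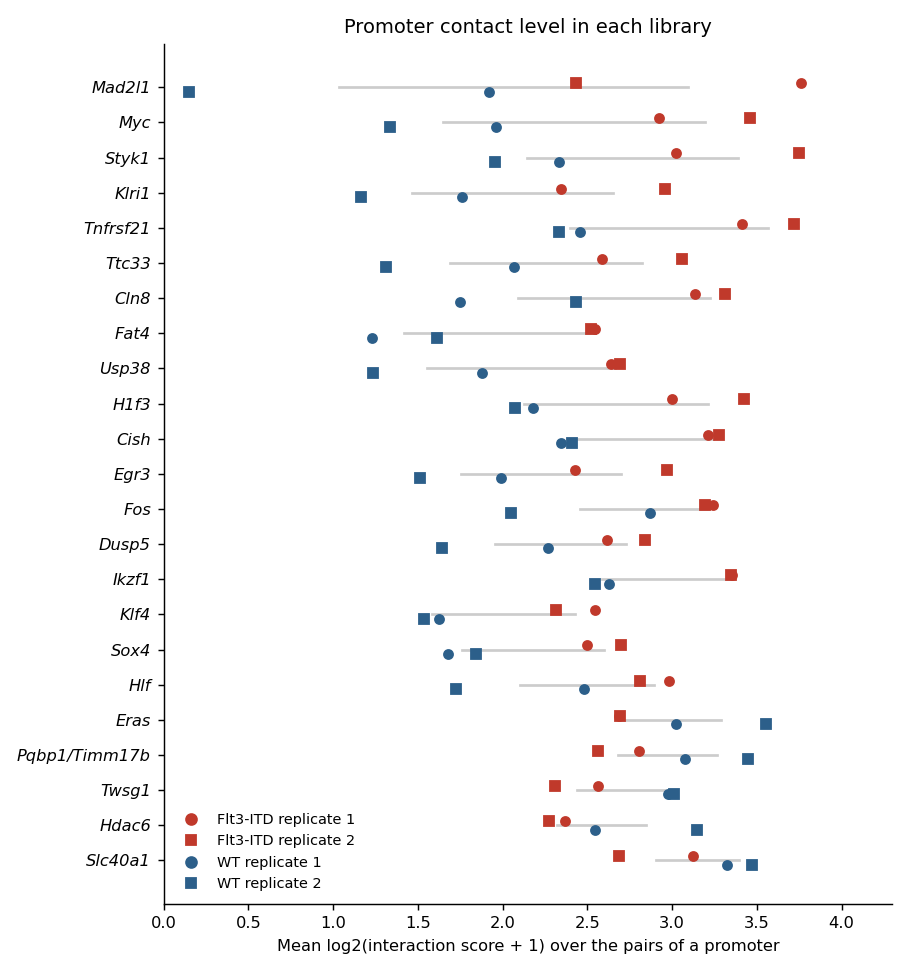
Mean log2(score + 1) over the pairs of each promoter (horizontal axis), with 1 point per library, red for Flt3-ITD and blue for WT; grey lines join the group means. From Mad2l1 to Hlf all red points lie right of all blue points, and from Eras to Slc40a1 all red points lie left of all blue points.

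10 promoters with a gene symbol were called higher with and without quantile normalization: Mad2l1, Myc, Styk1, Klri1, Tnfrsf21, Ttc33, Cln8, Fat4, Usp38 and H1f3. A further 3 such promoters hold no gene of the annotation. Tnfrsf21 (death receptor 6) had 15 pairs, all 203 to 448 kb away. Its mean was 3.41 and 3.72 in Flt3-ITD HSPCs, against 2.46 and 2.33 in WT HSPCs (difference 1.17, SE 0.20, adjusted p = 0.000365). The fragment at chr17:43239063-43239892 scored 13.0 and 11.4 with it in Flt3-ITD HSPCs and 0.00 in both WT libraries. This pair was not called on its own (adjusted p = 0.114 in the limma fit over all pairs). Tnfrsf21 was the 1 call among 6 tested apoptosis genes. Bcl2, the inhibitor of apoptosis, had 3.10 and 2.88 in Flt3-ITD HSPCs and 2.50 and 2.37 in WT HSPCs (adjusted p = 0.0615).

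The Styk1 promoter contacted the natural killer receptor complex. Its bait at chr6:131340997-131355093 had 134 listed pairs, 95 of them over 1 Mb away, and their other ends include the starts of Klre1, Klrd1, Klrk1, Klrc1 and Klri1, which encode lectin-like receptors of natural killer cells. The mean over 76 pairs was 3.02 and 3.75 in Flt3-ITD HSPCs, against 2.34 and 1.96 in WT HSPCs (difference 1.24, adjusted p = 0.00056). Of these 76, 52 passed in both Flt3-ITD libraries, against 21 in both WT libraries. Read from the other side, 13 baits in the receptor complex had 84 listed pairs with fragments around Styk1. Of the 55 listed through Npm1c or DM HSPCs, 19 passed in both Flt3-ITD libraries, against 6 in both WT libraries. Over all 63320 pairs so listed, the counts were 29242 and 19342. Klri1 (difference 1.19) and Klre1 (0.90) were called too. These receptor genes belong to a family of closely similar copies, as do the histone and olfactory receptor genes below, and how reads with several matches were counted is not given in the sources used here, so their values are uncertain.

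H1f3, a linker histone gene in the histone cluster of chromosome 13, had 59 pairs, 22 of them with other baits, among which are those of H4c6, H2ac8 and H3c2. Its mean over 42 pairs was 3.00 and 3.42 in Flt3-ITD HSPCs, against 2.18 and 2.07 in WT HSPCs (difference 1.08, SE 0.20, adjusted p = 0.000981). Of 24 histone promoters tested, 4 were called higher (H1f3, H4c6, the bait of H2ac10, H3c8 and H4c8, and that of H2ac11 and H4c9) and 0 lower, against 7.70% called of all promoters. The groups did not overlap in 12 of the 24, against 58.7% of all promoters, and the median difference was 0.36.

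Mad2l1, which encodes a protein of the spindle checkpoint, had the largest difference of a promoter with a symbol, and its replicates lay far apart. Of its 33 pairs, 27 joined the bait on chromosome 6 to fragments of chromosome 11. Its mean was 3.76 and 2.43 in Flt3-ITD HSPCs, against 1.92 and 0.15 in WT HSPCs (difference 2.06, adjusted p = 0.000128). Its highest-scoring fragment, at chr11:46658914-46659335, scored 243 and 136 in Flt3-ITD HSPCs and 46.9 and 0.00 in WT HSPCs, and the second WT library was at 0 in all 27. Without that library the difference was 1.18, and without the first WT library it was 2.95, in fits that set 1 library against 2. With 6 pairs within its own chromosome, the promoter could not be tested without the pairs between chromosomes.

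Fat4, an atypical cadherin of the Hippo pathway, averaged 2.55 and 2.52 in Flt3-ITD HSPCs, against 1.23 and 1.61 in WT HSPCs (difference 1.11, adjusted p = 0.000712), and 13 of its 14 pairs lay over 1 Mb away. With 1 library left out at a time its difference was 0.92 to 1.30, in fits that set 1 library against 2. Usp38, a deubiquitinase, averaged 2.64 and 2.69 in Flt3-ITD HSPCs, against 1.88 and 1.23 in WT HSPCs. Cln8, a protein of the endoplasmic reticulum, averaged 3.13 and 3.31 in Flt3-ITD HSPCs, against 1.75 and 2.43 in WT HSPCs. Ttc33 averaged 2.59 and 3.06 in Flt3-ITD HSPCs, against 2.07 and 1.31 in WT HSPCs. The next 15 by size were Vdac3, Sec23a, Ms4a13, Zkscan3, Ibtk, Egr3, Zfp493, Utp11, Snx18, Stxbp6, Igfbp3, Klre1, Cish, Aptx and Matr3, with differences of 0.86 to 1.06. Some of these leaned on 1 library. Without the first Flt3-ITD library the difference of Matr3 was 0.42. Without the second, those of Zkscan3 and Zfp493 were 0.61 and 0.59. Among the 15, Igfbp3, a binding protein of insulin-like growth factors, had 17 pairs, all over 1 Mb away. It averaged 3.15 and 3.27 in Flt3-ITD HSPCs, against 2.52 and 2.07 in WT HSPCs.

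**Figure D4:**
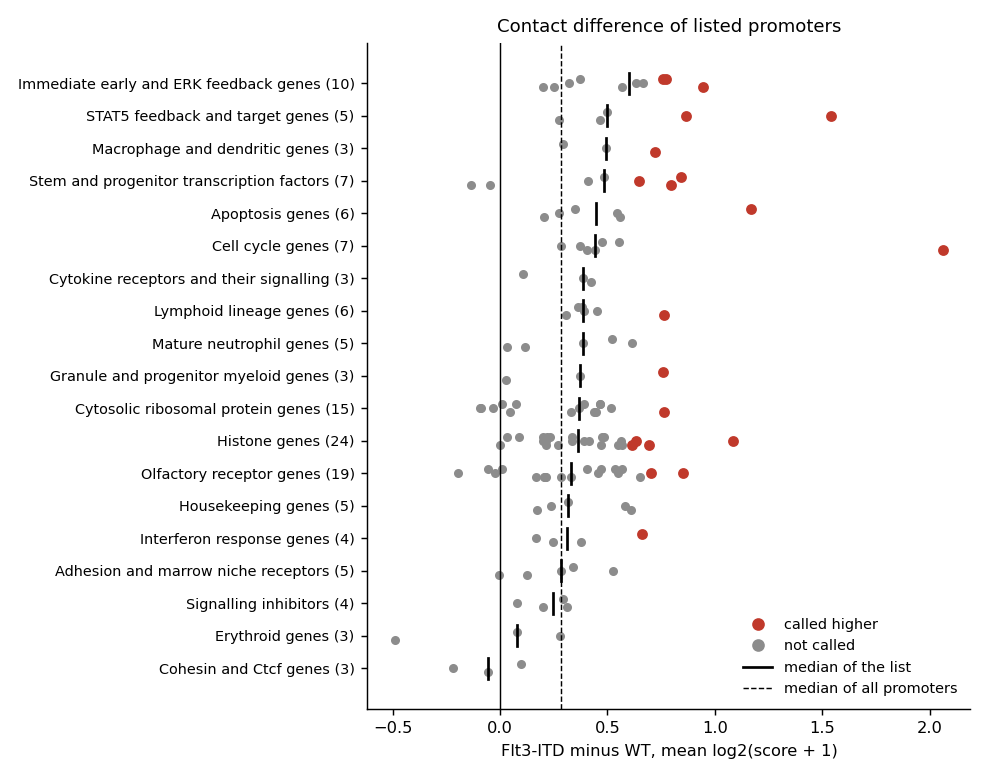
Difference of the contact level (Flt3-ITD minus WT, log2(score + 1)) of each tested promoter in the gene lists with at least 3 such promoters; the number tested is in brackets. Red points are called higher, bars are list medians and the dashed line is the median of all promoters, 0.28.

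Counts in the remaining lists stand beside 7.70% called of all promoters. Among granule and progenitor myeloid genes, Cd93, a surface receptor of stem and myeloid cells, was called at 2.54 and 2.58 in Flt3-ITD HSPCs, against 1.96 and 1.64 in WT HSPCs (adjusted p = 0.0194), while Elane, the neutrophil elastase, had a difference of 0.03. The neighbours of Cd93, Thbd (thrombomodulin) and Sstr4 (a somatostatin receptor), were called as well, so that all 3 promoters tested at this locus rose. Among macrophage and dendritic genes 1 of 3 was called, Cd74, the invariant chain of MHC class II, at 2.77 and 2.85 in Flt3-ITD HSPCs and 2.24 and 1.93 in WT HSPCs (adjusted p = 0.025). Among interferon response genes 1 of 4 was called, Ddx58, the RNA sensor RIG-I, with a difference of 0.66. 1 of 15 ribosomal protein promoters (Rpl37) and 2 of 19 olfactory receptor promoters were called. None was called among 5 mature neutrophil promoters (median 0.38), 5 housekeeping promoters (0.32), 5 promoters of adhesion and niche receptors (0.28), 4 of signalling inhibitors (0.25), 3 erythroid promoters (0.08), 2 megakaryocyte promoters (0.20), 3 cohesin and Ctcf promoters (-0.06), 1 basophil and mast cell promoter (0.32) or 1 promoter of a chromatin regulator, Eed (0.27).

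Of the 5 named promoters with lower scores in Flt3-ITD HSPCs, 3 lay at a single place on the X chromosome. They are the lowest of 7 promoters tested there. Pcsk1n differed by -0.46. Glod5, Wdr13 and the bait of Kcnd1 and Otud5 differed by -0.27, -0.03 and -0.02, with overlap of the groups. With quantile normalization 4 fell: Eras, the bait of Pqbp1 and Timm17b, Hdac6, and Twsg1 on chromosome 17. With the deposited scores none of these was called, and the adjusted p-values were 0.0567, 0.0596, 0.0893 and 0.0615. Eras, an embryonic RAS gene, averaged 2.68 and 2.70 in Flt3-ITD HSPCs, against 3.03 and 3.56 in WT HSPCs, a difference of -0.60. The bait of Pqbp1 and Timm17b, a splicing factor and a mitochondrial import gene, averaged 2.80 and 2.56 in Flt3-ITD HSPCs, against 3.08 and 3.45 in WT HSPCs. Hdac6, a cytoplasmic deacetylase, averaged 2.37 and 2.27 in Flt3-ITD HSPCs, against 2.55 and 3.15 in WT HSPCs. In all of these both Flt3-ITD libraries were below both WT libraries, and the second WT library was the highest. Without it the differences of Eras and Hdac6 were -0.34 and -0.23. Without the first WT library they were -0.87 and -0.83, in a fit where the highest library alone stands for WT.

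These X-linked promoters lie beside Gata1, the main transcription factor of erythroid and megakaryocytic cells, and contact it and each other. Of 24 pairs of the Pqbp1 bait listed through Npm1c or DM HSPCs, 10 passed 5 in both Flt3-ITD libraries and 17 in both WT libraries. For Eras the numbers were 5 and 12 of 15, and for Hdac6 3 and 9 of 16. The Gata1 bait had 6 listed pairs, of which 1 was listed through Npm1c or DM HSPCs. Its pair with the Pqbp1 fragment scored 3.99 and 2.28 in Flt3-ITD HSPCs, against 7.31 and 8.55 in WT HSPCs, and is listed only through WT HSPCs. Its pair with the Pcsk1n fragment, the 1 free of that selection, scored 2.72 and 2.78 in Flt3-ITD HSPCs, against 4.63 and 13.2 in WT HSPCs. Over the pairs of the locus listed through Npm1c or DM HSPCs (160 pairs of 22 baits between 7.7 and 8.2 Mb), the mean log2(score + 1) was 2.59 and 2.54 in Flt3-ITD HSPCs, against 2.68 and 3.05 in WT HSPCs. Over the other 676 X-linked pairs it was 2.53 and 2.55 in Flt3-ITD HSPCs, against 2.40 and 2.33 in WT HSPCs. Slc40a1 (ferroportin), the iron exporter of erythroid cells and macrophages, was also among the lowest, at 3.12 and 2.69 in Flt3-ITD HSPCs and 3.32 and 3.47 in WT HSPCs (difference -0.49, adjusted p = 0.104), and without the second Flt3-ITD library the difference was -0.27. Twsg1, a modulator of BMP signalling, averaged 2.56 and 2.31 in Flt3-ITD HSPCs, against 2.98 and 3.01 in WT HSPCs. Fewer cells of a type and weaker contacts per cell cannot be told apart in bulk chromatin, and the cell makeup of the lineage-negative fractions was not measured, so its part in these values was not tested.

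Called promoters were spread over all autosomes. Chromosome 6 had 19 of 103 tested promoters called (18.4%), chromosome 13 had 14 of 92 (15.2%), and chromosome 7 had 5 of 206 (2.43%). Median differences were 0.20 to 0.35 on the autosomes and -0.02 on the X, where 0 of 19 were called. When called promoters within 1 Mb of each other were joined, they formed 113 runs, of which 7 held 3 or more. The largest run held 6 of 10 tested promoters at chr6:124996524-125331814, among them those of Ing4, Iffo1, Ltbr and Ncapd2. Close to this run, at chr6:124827772-124833403, lies the fragment of Cdca3 and Usp5. As an other end it was at 0 in both WT libraries for all 20 pairs tested. Leaving out all such fragments gave 128 promoters called higher, and which calls of this run remained is not given. Dusp5 shared a run of 3 of 3 with Smndc1 and a promoter without a symbol.

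The difference between the groups grew with distance. In pairs under 100 kb apart (12543 pairs) the mean log2(score + 1) was 2.88 and 2.84 in Flt3-ITD HSPCs, against 2.74 and 2.61 in WT HSPCs, a difference of 0.18. Between 250 and 500 kb (17554 pairs) it was 2.65 and 2.68 in Flt3-ITD HSPCs, against 2.45 and 2.30 in WT HSPCs, a difference of 0.29. Over 1 Mb (2673 pairs) it was 2.08 and 2.44 in Flt3-ITD HSPCs, against 1.70 and 1.52 in WT HSPCs, a difference of 0.65. Both Flt3-ITD libraries were above both WT libraries in each of the 6 distance classes, with an exact permutation p of 0.33 in each and after adjustment over the 6, the smallest this design allows. With quantile normalization the classes below 500 kb turned slightly negative (-0.06 to -0.004) and the difference over 1 Mb was 0.34. In pairs that passed 5 in all 4 HSPC groups, chosen after seeing the data, the difference was 0.14 under 100 kb (2709 pairs) and 0.43 over 1 Mb (159 pairs). Pairs of called promoters had a median distance of 258 kb, against 200.3 kb over all promoters tested. Pairs whose other end is not a bait averaged 2.67 and 2.71 in Flt3-ITD HSPCs, against 2.45 and 2.30 in WT HSPCs. Pairs between baits averaged 2.83 and 2.80 in Flt3-ITD HSPCs, against 2.71 and 2.59 in WT HSPCs.

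**Figure D5:**
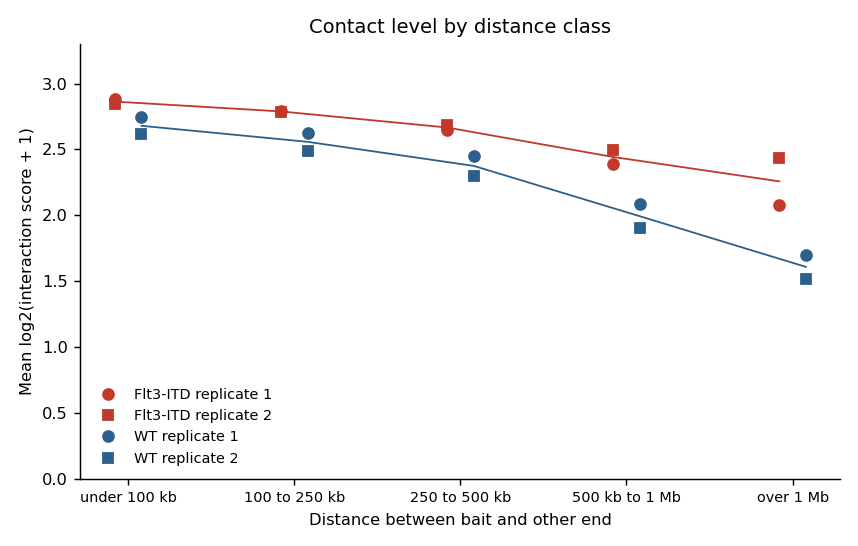
Mean log2(score + 1) in 5 classes of distance between bait and other end, with 1 point per library and lines through the group means, Flt3-ITD in red and WT in blue. The gap between the lines is 0.18 under 100 kb and 0.65 over 1 Mb.

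Counting single pairs at the score of 5, over the pairs listed through Npm1c or DM HSPCs, 4837 were gained (5 or more in both Flt3-ITD libraries and under 5 in both WT libraries) and 1139 were lost (the opposite). Leaving out 1 library at a time, which asks less of a group, gave 8242 to 11265 gained and 2878 to 3489 lost. Over 1 Mb the counts were 230 gained and 24 lost, and under 100 kb 855 and 274. Pairs of very long range, over 10 Mb within a chromosome, numbered 430 on the whole list. Of the 200 listed through Npm1c or DM HSPCs, 51 passed in both Flt3-ITD libraries, against 26 in both WT libraries. Of the 160 listed pairs over 50 Mb, all were on chromosome 1.

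In the fit over all 88421 pairs, 422 pairs were called higher in Flt3-ITD HSPCs (0.477%) and 80 lower (0.0905%), and with quantile normalization 279 were higher (0.316%) and 169 lower (0.191%). Of the 422 and the 80, 125 and 6 were listed through Npm1c or DM HSPCs, and the others only through the groups compared. In a separate fit of the 63320 pairs listed through Npm1c or DM HSPCs, with its own adjustment, 12 were called higher (0.0190%) and 0 lower, with 7096 at an unadjusted p under 0.05. Leaving out any library of the groups compared left 0 to 2 higher and 0 to 1 lower. Of the 422, 252 were at 0 in both WT libraries and 261 spanned over 1 Mb (61.8%, against 5.11% of all pairs). Of the 80, 50 were at 0 in both Flt3-ITD libraries. Most of these called pairs were listed only through the groups compared, so their scores of 0 and their distances carry the list filter.

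The 8 largest gains joined different chromosomes or ends over 1 Mb apart. Of these, 3 were listed through Npm1c or DM HSPCs (Cd244a with chromosome 14, Rpp21 and Hmgn5), and of the 8 largest losses 0 were. Cd244a, which encodes a receptor of natural killer cells, scored 69.8 and 84.8 with chr14:90084435-90087987 in Flt3-ITD HSPCs and 0.00 in both WT libraries (adjusted p = 0.00192), and 5.18 and 5.08 in Npm1c HSPCs. The Rpp21 bait, whose gene encodes a subunit of RNase P, scored 32.9 and 23.5 with a fragment of chromosome 7 in Flt3-ITD HSPCs and 0.00 in both WT libraries. Cd244a and its neighbour Itln1 both scored with chr1:3454660-3458184, 168 Mb away: 44.3 and 15.3 for Cd244a and 10.2 and 38.9 for Itln1 in Flt3-ITD HSPCs, against 0.00 in WT HSPCs. The other 4 largest gains were of Zkscan6, 1700030J22Rik, Mptx1 and Hmgn5. Among the 12 calls of the separate fit were Ccng1, a cyclin that p53 induces, and Pttg1 (securin), whose baits on chromosome 11 each contacted a fragment near the other, 2.6 and 2.7 Mb away. The Ccng1 pair scored 10.3 and 14.9 in Flt3-ITD HSPCs, against 0.27 and 0.00 in WT HSPCs. The Pttg1 pair scored 7.45 and 8.59 in Flt3-ITD HSPCs and 0.00 in both WT libraries.

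Of the 8 largest losses, 4 ended on the Hjurp fragment of chromosome 1 and a further 2 on fragments near it. All 8 are on the list only because WT HSPCs passed, so their scores carry the list filter. Hjurp encodes the chaperone of the centromeric histone. Tcea1, an elongation factor gene 83.4 Mb away, scored 0.00 in both Flt3-ITD libraries with it, against 22.4 and 44.9 in WT HSPCs. Mcm3, a replication helicase subunit, Atp6v1h, a proton pump subunit, and Ptp4a1, a phosphatase, were likewise at 0.00 with it in both Flt3-ITD libraries, while both WT libraries scored over 5. The 4 pairs with the Hjurp fragment were also at 0.00 in every Npm1c and DM library. The Kif11 bait, of a mitotic kinesin, scored 0.00 and 0.13 with a fragment 462 kb away in Flt3-ITD HSPCs, against 23.4 and 34.6 in WT HSPCs. This pair scored 0.40 and 0.00 in Npm1c HSPCs and 0.00 and 2.98 in DM HSPCs.

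Some other ends were at 0 for every pair in a whole group. Of 1722 other ends with at least 5 pairs, 2 were called higher in Flt3-ITD HSPCs (0.116%) and 0 lower, with 279 at an unadjusted p under 0.05; with either one of the Flt3-ITD libraries left out, 0 were called higher. The other end that holds Cdca3 and Usp5 averaged 3.50 and 3.53 over 20 pairs in Flt3-ITD HSPCs and 0.00 in both WT libraries. The other end of Alyref and Anapc11 averaged 2.54 and 2.58 over 6 pairs in Flt3-ITD HSPCs and 0.00 in both WT libraries. As baits the same fragments scored in WT HSPCs, at 2.83 and 3.12 for Cdca3 and Usp5 and at 2.54 and 2.38 for Alyref and Anapc11. A 0 for every pair of a fragment may be a missing value, and whether such fragments were filtered in some libraries is not given in the sources used here. Among 9323 other ends with at least 3 pairs, 11 were at 0 throughout both WT libraries and 9 throughout both Flt3-ITD libraries, 1 of them in both groups. Leaving such fragments out gave 128 promoters called higher and 0 lower.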

How the data were processed

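Promoter-capture Hi-C was measured in lineage-negative bone marrow cells, with HindIII digestion after fixation in 1% formaldehyde for 10 minutes and 39684 probes for 22047 promoters, per the labels' protocols. Each deposited file gives 1 interaction score per pair, which the authors computed in a way not given in the sources used here; the build was mm10, per the submitters' processing notes. The deposited files also give the distance between the ends, another quantity in bp. No counts are given, so library depth is unknown, and the spread between 2 replicates limits the precision. Pairs outside the autosomes and X (203 of 88624) were not used. Genes were assigned from RefSeq GRCm38.p6 when a start site lay in the fragment (8787 genes), or either gene end where the promoter table has no entry (2184 genes). Differences are of log2(score + 1), a pseudocount of 1, which understates changes of low scores.

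The fits for promoters and other ends used limma (version 3.58.1, under R 4.3.3), two-sided, at an adjusted p under 0.05, with the 4 libraries compared; pairs were fitted with the 8 HSPC libraries, and the fits were tested on simulated data. Replicates are biological duplicates per the series text. Named promoters are those called in both scalings, the next 15 by size, called members of the lists, the 5 lowest at an unadjusted p under 0.05 and those called lower with quantile normalization, plus 12 signalling and lineage genes; for pairs, the 8 largest in each direction without overlap of the groups. The pairs of single promoters shown beside them, Gata1, and the uncalled list members were picked after their values were seen. The members and lists were chosen with earlier results of these data known.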

Additional observations from a re-analysis of the deposited data

How the results depend on the processing

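Beside the values in the report, the count of 143 promoters higher and 0 lower was 4 and 0 with each library centred on its median promoter, 38 and 0 with at least 5 pairs per promoter, 94 and 1 with at least 20, 19 and 0 with a pseudocount of 0.1, 86 and 1 with pairs from Npm1c HSPCs only, 6 and 0 with pairs from DM HSPCs only, 453 and 18 with all listed pairs, and 2 lower with a trend in the prior variance. Quantile normalization gave 13 and 4. In pairs at 5 or more in all 4 HSPC groups, an alternative chosen after seeing the data, 25 of 475 were higher. With the replicate number as a block, 0 promoters were called, with 441 at an unadjusted p under 0.05; libraries with the same number did not deviate together (Pearson r = -0.01 over promoters and 0.006 over pairs), so the number is not read as a pairing. With the block, 286 pairs were higher and 58 lower, and the 2 other ends stayed 2.

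Leaving out 1 library at a time gave 7 to 631 promoters higher and 0 to 10 lower, 0 to 33 other ends higher and 0 to 1 lower, 0 to 2 pairs higher and 0 to 1 lower, 8242 to 11265 pairs gained and 2878 to 3489 lost. With at least 10 pairs 1 other end was higher. Pairs were 279 higher and 169 lower with quantile normalization, and 12 and 0 over pairs from Npm1c or DM HSPCs. Over the whole list, the gap in the share of pairs was 13.9 percentage points at the score of 5 and 4.24 at 10. It was 10.7 to 17.1 without a library, and 13.6 over pairs listed through Npm1c or DM HSPCs.

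By distance, quantile normalization gave -0.0599 under 100 kb, -0.0338 at 100 to 250 kb, -0.00389 at 250 to 500 kb, 0.117 at 500 kb to 1 Mb and 0.342 over 1 Mb. A pseudocount of 0.1 gave 0.394 at 250 to 500 kb, 0.699 at 500 kb to 1 Mb, 1.14 over 1 Mb and 3.34 between chromosomes. Pairs at 5 or more in all 4 groups gave 0.205, 0.25, 0.426 and 0.416 in the same classes, the last from 3 pairs. The cause of these shifts was not tested. Of the 46 named promoters, 41 had been called, and all 41 lost their call with the block. None of the named promoters or the 16 named pairs was reversed in any setting run. Library depth is not given, so scores near 0 carry an unknown counting error.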
